A study of Mus musculus with 15 samples.

Results

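Cells move inorganic phosphate across the plasma membrane with the importers PiT-1 and PiT-2 and the exporter XPR1, and hold back calcium phosphate deposition outside the cell with pyrophosphate, which ENPP1 makes and the ANK protein helps to release. Osteopontin, a secreted phosphoprotein that binds hydroxyapatite and integrins, is a major product of macrophages and of cells in mineralizing tissue. The genes described here are *Slc20a1* (PiT-1), *Slc20a2* (PiT-2), *Xpr1*, *Ank* (also named *Ankh*), *Enpp1*, *Spp1* (osteopontin) and *Slc37a2*, a member of the sugar-phosphate exchanger family that is abundant in macrophages and osteoclasts. They were picked by symbol and make up 7 of the 78317 genes in the table, each matched by 1 Ensembl identifier (in that order ENSMUSG00000027397, ENSMUSG00000037656, ENSMUSG00000026469, ENSMUSG00000022265, ENSMUSG00000037370, ENSMUSG00000029304 and ENSMUSG00000032122, on chromosomes 2, 8, 1, 15, 10, 5 and 9).

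The RNA came from MH-S cells, a murine alveolar macrophage line transformed with SV40, grown as 1 passage and sampled as 5 groups of 3 wells at 24 h. All groups shared the line and the medium. M0 received medium only. CaP and SiO2 wells received 0.1 mg/mL of calcium phosphate or silica microrods in 200 µL, every well from its own particle preparation, and both rod types carried alginate and layers of protamine and carboxymethyl chitosan, so the nanoparticle core is the named difference between them. Equal mass does not mean an equal number of rods, since the materials differ in density. M1 wells received LPS at 1 µg/mL with IFN-γ at 20 ng/mL, and M2 wells IL-4 at 20 ng/mL. The wells are replicates of 1 line and 1 passage, so the spread covers wells and, for rods, particle preparations.

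Library totals ran from 8459643 to 68750050 counts, and levels are given as CPM, counts relative to the TMM-scaled library size. On the second principal component, M0 replicate 3, SiO2 replicate 2 and M2 replicate 2 stood apart from the other libraries of their groups, at -42.7, -21.7 and -43.9. Each had the lowest total of its group, at 8459643, 12646926 and 8594947 counts. CaP replicate 2 and M1 replicate 3, also the lowest totals of their groups, lay at -2.41 and 4.29. The part of depth in this component was not tested. Within CaP, the counts of replicates 2 and 3 were the closest, at a chi-square of 17.2 per gene. Replicate 1 gave 98.0 with replicate 2 and 134.8 with replicate 3. This measure also rises with depth, and CaP replicate 1 had the largest CaP total, 50729211 counts. Of 8 macrophage markers, 7 reached a mean of at least 5 CPM in every group. Of 8 alveolar macrophage markers none did in M0, M1 or the rod groups and only *Mrc1* did in M2, and *Siglecf*, *Car4* and *Chil3* were too low to be tested, so the alveolar label of the line is not carried by these transcripts. Markers of other cell types summed to between 0.232 and 2.80 CPM in each library, and of 4 osteoblast markers only *Runx2* reached 5 CPM.

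*Spp1* was the most abundant of the 7 genes and differed most between the rods, though that difference did not pass the test (edgeR adjusted p = 0.864). It stood at 4910.2 ± 518.5 CPM (SD, n = 3) in M0, 6293 ± 351 with SiO2 rods, 7586 ± 575 in M1 and 9396 ± 356 with CaP rods, and fell to 1400.05 ± 619.7 in M2. *Ank* fell in M1 and *Slc37a2* rose in M2. The importers *Slc20a1* and *Slc20a2* and the exporter *Xpr1* passed the test in no comparison, and *Enpp1* was close to absent in all groups. Per kilobase of the longest annotated transcript, the M0 means ran from 3258 CPM per kb for *Spp1* through 11.8 for *Ank*, 7.93 for *Slc20a1*, 1.75 for *Xpr1*, 1.53 for *Slc20a2* and 0.792 for *Slc37a2* to 0.00259 for *Enpp1*.

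**Figure D1:**
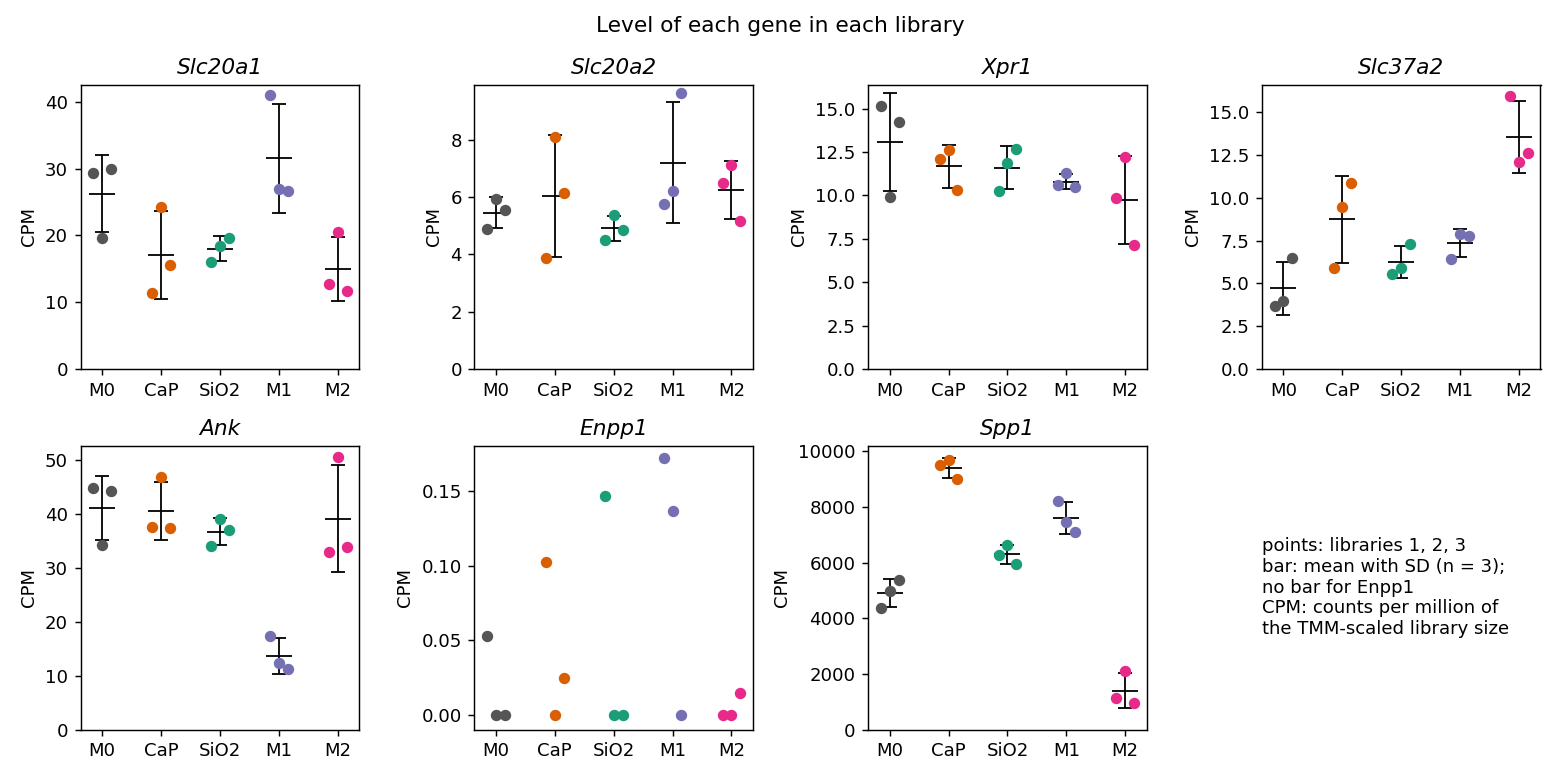
Level of the 7 genes in CPM (vertical axes, 1 panel a gene, each with its own scale) in the 15 libraries by group (horizontal axis), with points for libraries and bars for the mean and SD of 3, except for *Enpp1*, which has points only. The 3 CaP libraries of *Spp1* sit between 9003 and 9695 CPM, above every library of the other groups, and the 3 M1 libraries of *Ank* between 11.2 and 17.5 CPM, below every other library.

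Differences between groups were tested by the quasi-likelihood method of edgeR, and a gene counted as changed (called) at a Benjamini-Hochberg adjusted p below 0.05 over all genes tested and an absolute log2 fold change above 0.5. *Enpp1* did not pass the filter on low counts, which left 6 of the 7 genes for testing. Between CaP and SiO2 rods 0 of the 6 were called, beside 0.0241% of the 16621 genes tested. By edgeR 1 of the 6, *Spp1*, had an unadjusted p below 0.05 there, beside 1.87% of all genes, and DESeq2 also called 0. CaP rods against M0 gave 1 of 6 (*Spp1*, higher) beside 0.409% of all genes. Leaving out single libraries moved the genes called there from 68 to between 13, without M0 replicate 1, and 743, without CaP replicate 1. In that comparison 3 of 6, *Spp1*, *Slc37a2* and *Slc20a1*, had an unadjusted edgeR p below 0.05, beside 18% of all genes. SiO2 rods against M0 gave 0 of 6 beside 0.0602%. Only *Spp1* had an unadjusted edgeR p below 0.05 with SiO2 rods, beside 9.27% of all genes, and DESeq2 called 0. M1 against M0 gave 1 of 6 (*Ank*, lower) beside 14.1% of 16654 genes, and M2 against M0 gave 2 of 6 (*Slc37a2*, higher, and *Spp1*, lower) beside 4.13%. The 4 comparisons with M0 share the same 3 M0 libraries. RNA was taken from whole wells, so fewer expressing cells and less RNA per cell cannot be told apart in any of these differences.

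**Figure D2:**
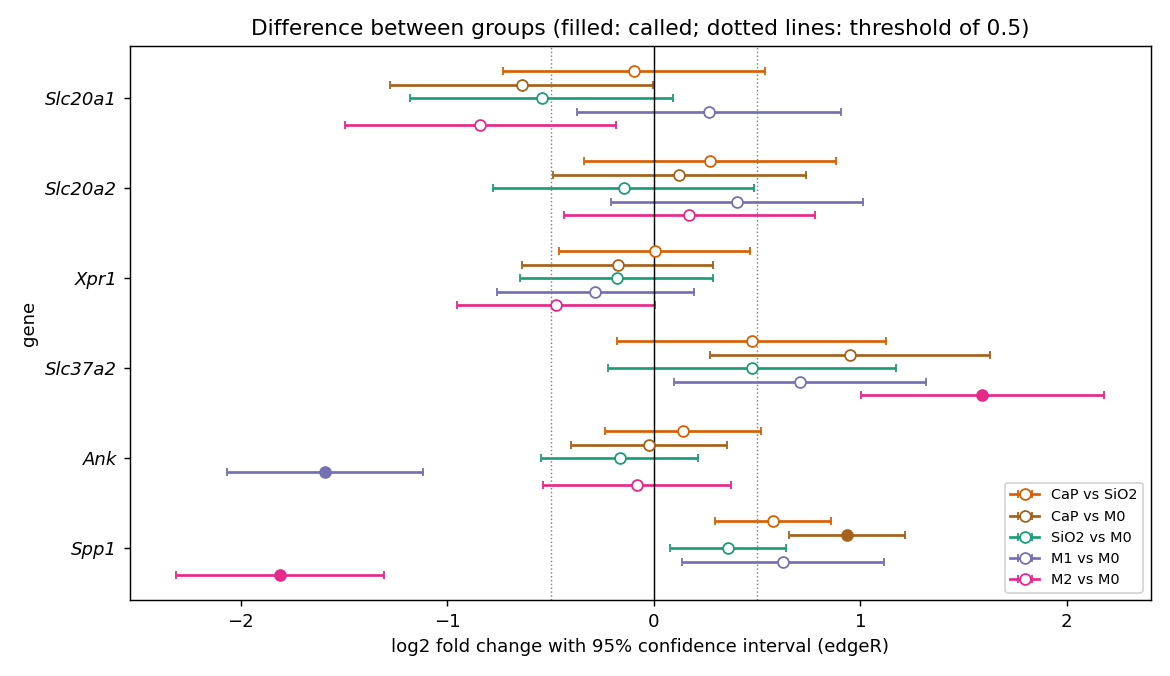
Log2 fold change with its 95% confidence interval (horizontal axis) for the 6 tested genes (vertical axis) in the 5 comparisons, with filled points for called differences and dotted lines at the threshold of 0.5. The filled points are *Spp1* in CaP against M0 and in M2 against M0, *Ank* in M1 and *Slc37a2* in M2.

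The promoters of the 3 genes with a called difference are shown so that the text can be read beside the sequence each gene starts from. They are the 250 bases before the RefSeq start on GRCm38.p6, another build than the authors' GRCm39, written 5′ to 3′ on the gene's strand. Capitals mark matches to any of the motifs that were searched on both strands, and *Slc20a2* has no entry in the table used.
Spp1 (chr5:104434861-104435110, plus strand): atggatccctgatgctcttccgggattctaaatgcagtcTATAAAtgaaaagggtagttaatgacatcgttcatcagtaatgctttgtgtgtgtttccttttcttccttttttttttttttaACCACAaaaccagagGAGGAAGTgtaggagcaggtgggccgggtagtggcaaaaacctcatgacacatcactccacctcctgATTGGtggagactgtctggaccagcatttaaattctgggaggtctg
Ank (chr15:27466427-27466676, plus strand): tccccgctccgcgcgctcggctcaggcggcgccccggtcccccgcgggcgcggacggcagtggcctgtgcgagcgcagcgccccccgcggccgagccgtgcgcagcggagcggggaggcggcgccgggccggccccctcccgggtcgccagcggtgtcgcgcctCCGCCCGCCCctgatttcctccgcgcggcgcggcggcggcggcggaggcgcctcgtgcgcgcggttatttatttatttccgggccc
Slc37a2 (chr9:37255739-37255988, minus strand): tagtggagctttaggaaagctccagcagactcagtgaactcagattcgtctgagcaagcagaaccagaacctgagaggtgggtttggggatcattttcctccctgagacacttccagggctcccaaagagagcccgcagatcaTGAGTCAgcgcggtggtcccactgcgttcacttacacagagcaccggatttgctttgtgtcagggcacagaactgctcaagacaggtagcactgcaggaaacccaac

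The motifs were AP-1 (TGANTCA), CRE (TGACGTCA), E-box (CACGTG), RUNX (ACCACA), GC box (GGGCGG), the CCAAT box, a plain TATA motif (TATAAA), a STAT motif (TTCNNNGAA) and the ETS motif bound by PU.1 (GAGGAAGT). The *Spp1* window held TATAAA from 211 to 206 bases before the start, RUNX from 128 to 123 and the ETS motif from 113 to 106, and CCAAT on the other strand from 46 to 42. Of the 32851 promoter windows in the table, 14% held the RUNX motif, 2.44% the ETS motif, 12.4% TATAAA and 33.8% CCAAT. The *Ank* window, with 81.2% G and C against 43.6% for *Spp1*, held a pair of overlapping GC boxes on the other strand between 86 and 77 bases before the start, a motif found in 32.7% of windows. The *Slc37a2* window held 1 AP-1 motif, from 107 to 101 bases before the start, found in 6.75% of windows. No match to CRE, E-box or STAT (1.55%, 6.02% and 7.02% of windows) lay in any of the 3. These matches are letters in a window, not measured binding sites.

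The importers take up phosphate together with sodium. *Slc20a1* stood at 29.3, 19.6 and 29.9 CPM in M0 replicates 1, 2 and 3, at 11.3, 24.3 and 15.5 with CaP rods and at 16.0, 18.5 and 19.7 with SiO2 rods. It stood at 41.0, 27.0 and 26.7 CPM in M1 and at 12.8, 20.5 and 11.7 in M2. Both rod groups and M2 lay mostly below M0, but each overlapped it through M0 replicate 2, and the CaP libraries spread more widely than the SiO2 ones. The order of the means was M2, CaP, SiO2, M0, M1, and every neighbour in it overlapped the next.

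CaP and SiO2 rods did not differ detectably in *Slc20a1*, with a log2 fold change of -0.10 (95% confidence interval -0.73 to 0.54, edgeR adjusted p = 1.00). Against M0 the log2 fold changes were -0.64 ± 0.28 (SE) with CaP rods (edgeR adjusted p = 0.275) and -0.54 ± 0.28 with SiO2 rods (edgeR adjusted p = 0.599). In M2 it was -0.84 ± 0.30 (edgeR adjusted p = 0.159), and without M2 replicate 2 it came to -1.10 with an adjusted p of 0.0410. In M1 it was 0.27 ± 0.30 (edgeR adjusted p = 0.584).

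*Slc20a2*, the second importer, ranged only from 3.86 to 9.62 CPM over all 15 libraries, on 48 to 360 counts. Its group means lay between 4.90 ± 0.438 CPM with SiO2 rods and 7.20 ± 2.11 CPM in M1, and all groups overlapped their neighbours. The CaP against SiO2 difference was 0.27 on the log2 scale with an interval from -0.34 to 0.88, so differences inside that interval could not be told from 0. Against M0 its log2 fold changes were between -0.15 with SiO2 rods and 0.40 in M1.

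*Xpr1*, the phosphate exporter, stood at 13.1 ± 2.82 CPM in M0, 11.7 ± 1.22 with CaP rods, 11.6 ± 1.25 with SiO2 rods, 10.8 ± 0.432 in M1 and 9.74 ± 2.55 in M2. All groups overlapped. The rods differed by 0.00 on the log2 scale, with an interval from -0.46 to 0.47. The M2 difference from M0, -0.47 ± 0.22 (edgeR adjusted p = 0.295), was the furthest from 0.

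*Slc37a2* stood at 3.66, 3.97 and 6.49 CPM in M0, at 5.93, 9.47 and 10.9 with CaP rods and at 5.53, 5.90 and 7.29 with SiO2 rods. It reached 6.45, 7.86 and 7.77 CPM in M1 and 16.0, 12.1 and 12.6 in M2. The M2 libraries lay above all others, and M0 replicate 3, the smallest library with 56 counts of the gene, was the highest of M0 and overlapped the lower libraries of the 2 rod groups and of M1.

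*Slc37a2* rose in M2 by 1.59 ± 0.27 on the log2 scale (edgeR adjusted p = 0.00425), a call that held in all 13 alternatives. With CaP rods the difference from M0 was 0.95 ± 0.30 (edgeR adjusted p = 0.163). Leaving out single libraries moved this between 0.73 and 1.19, with edgeR adjusted p from 0.0507 to 0.538, and no such fit called it. With SiO2 rods the difference from M0 was 0.48 ± 0.31 (edgeR adjusted p = 0.697) and in M1 it was 0.71 ± 0.28 (adjusted p = 0.116). Without the 3 libraries that stood apart, the M1 difference was 0.95 with an adjusted p of 0.0416. CaP against SiO2 gave 0.47 with an interval from -0.18 to 1.12.

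*Ank*, the multipass membrane protein of the pyrophosphate pathway, stood at 44.9, 34.3 and 44.2 CPM in M0, at 37.6, 46.8 and 37.5 with CaP rods and at 34.0, 39.0 and 37.1 with SiO2 rods. It stood at 33.0, 50.7 and 33.8 CPM in M2, but at only 17.5, 12.3 and 11.2 in M1. M1 thus lay below every other library, and the other 4 groups overlapped.

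The fall of *Ank* in M1 was 1.59 on the log2 scale (log2 fold change -1.59 ± 0.22, edgeR adjusted p = 2.72e-04), and it was called in all 13 alternatives, between -1.81 and -1.47. In the other comparisons the gene stayed near 0. CaP against SiO2 gave 0.14 (interval -0.24 to 0.52), CaP against M0 -0.02 (interval -0.40 to 0.36), SiO2 against M0 -0.16 and M2 against M0 -0.08.

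*Enpp1*, the ectoenzyme that makes pyrophosphate from nucleotides, had 0 counts in 8 of 15 libraries and 16 counts over all of them, at most 5 in any one. Its signal was thus a few reads in scattered libraries of all groups. The limit that a count of 0 allows, 3 counts, corresponds to 0.0429 to 0.395 CPM depending on the library. No difference in *Enpp1* could be measured at this depth, and no fold is given.

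*Spp1* was counted deeply in every library, with 16012 counts or more. Its levels were 4358, 4986 and 5386 CPM in M0, 9489.9, 9695 and 9003 with CaP rods and 6287, 6646 and 5945 with SiO2 rods. M1 held 8219.5, 7441 and 7097 CPM, and M2 held 1140.1, 2107 and 953. The groups followed each other as M2, M0, SiO2, M1 and CaP without overlap between any neighbours. Within M2, replicate 2, one of the libraries that stood apart, was the highest.

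Between the rods, *Spp1* was higher with CaP in 3 of 3 libraries, by 0.58 ± 0.13 on the log2 scale (interval 0.30 to 0.86). Its p of 0.00109 in the edgeR fit ranked 21 of the 16621 genes and did not pass the correction (adjusted p = 0.864). Libraries of the rod groups did not overlap for 8.1% of all genes tested. DESeq2, the tool of the study's own analysis, gave an adjusted p of 0.0877, and edgeR without the filter on low counts gave a log2 fold change of 0.62 with an adjusted p of 0.0298, the only call among 13 alternatives, which gave log2 fold changes from 0.53 to 0.62.

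Against M0, *Spp1* rose with CaP rods by 0.94 ± 0.13 on the log2 scale (interval 0.65 to 1.22, edgeR adjusted p = 0.0174, and 1.78e-07 by DESeq2). The libraries did not overlap, as for 17.4% of all genes in this comparison. The size held from 0.83 to 1.00 in the 13 alternatives, but the call was lost in 7 of them. Of these, 6 were the fits without M0 replicate 1 (0.83, adjusted p = 0.0558), M0 replicate 3 (1.00, 0.0556), CaP replicate 2 (0.90, 0.0857) or CaP replicate 3 (0.96, 0.0827), the fit without the 3 libraries that stood apart (1.00, 0.124) and the model of all 15 libraries (0.94, 0.0875). The other was the fit with a replicate block, although the numbers did not pair the libraries consistently in this comparison.

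With SiO2 rods the *Spp1* difference from M0 was 0.36 ± 0.13 on the log2 scale (interval 0.08 to 0.64, edgeR adjusted p = 0.456). All 3 SiO2 libraries lay above all 3 of M0, as libraries of the 2 groups did not overlap for 18% of genes tested. The difference between the CaP and SiO2 responses is the CaP against SiO2 comparison given above.

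**Figure D3:**
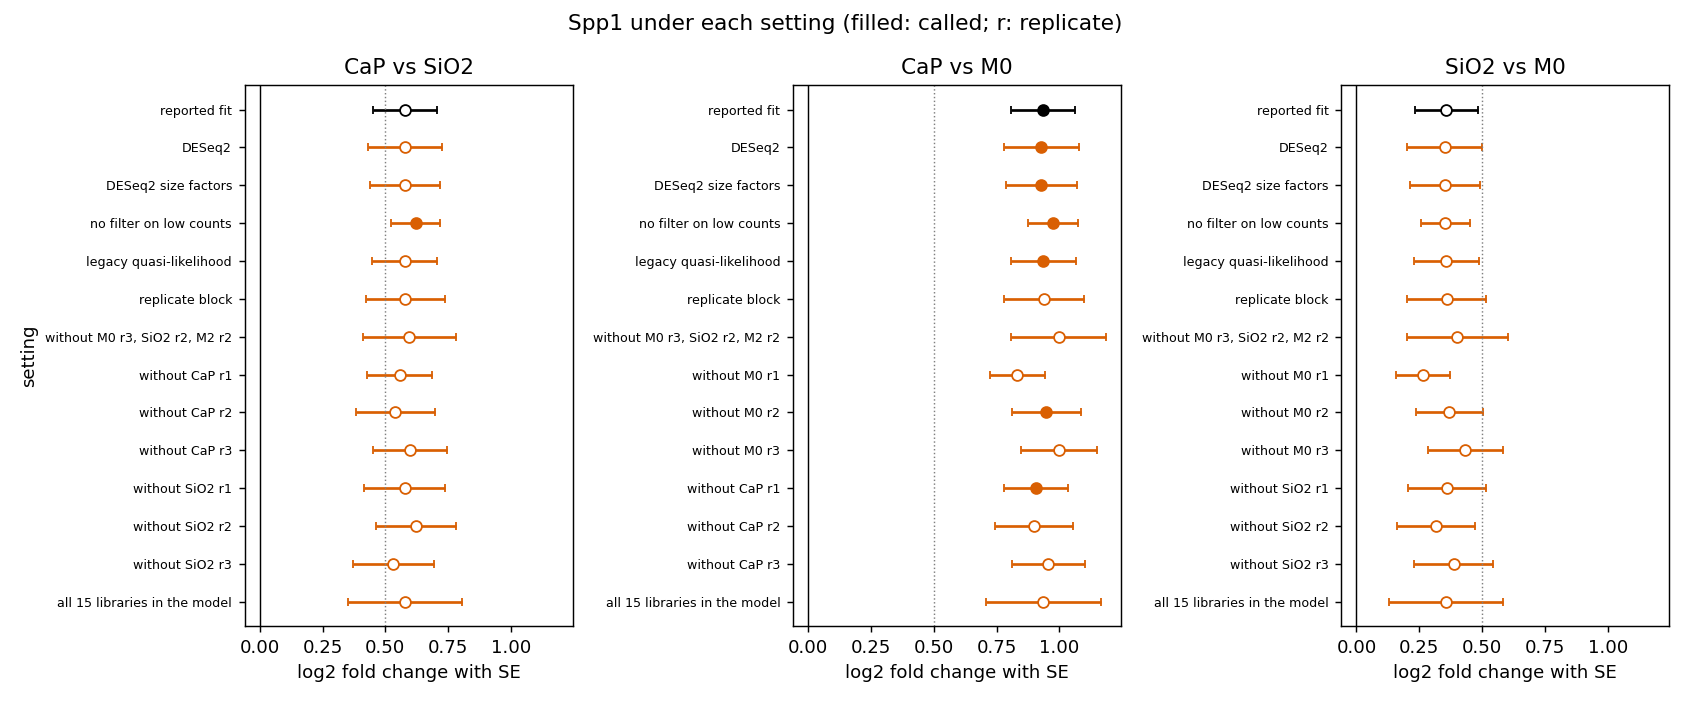
Log2 fold change of *Spp1* with its standard error (horizontal axis) in 3 rod comparisons under the reported fit (black) and each alternative (orange, vertical axis), with filled points where the gene was called. The sizes moved little, between 0.53 and 0.62 for CaP against SiO2, 0.83 and 1.00 for CaP against M0 and 0.27 and 0.43 for SiO2 against M0, while the CaP against M0 call came and went.

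In M1, *Spp1* was 0.63 ± 0.23 higher than in M0 on the log2 scale (edgeR adjusted p = 0.0839), with no overlap between the libraries, as for 32.2% of genes there. Without the 3 libraries that stood apart it was 0.69 with an adjusted p of 0.00978, and without the filter 0.62 with 0.00220. In M2 it fell by 1.81 on the log2 scale (log2 fold change -1.81 ± 0.23, edgeR adjusted p = 4.70e-04), called in all 13 alternatives between -2.23 and -1.60, with no overlap, as for 15.2% of genes. The summed level of the 8 macrophage markers was also lower in M2, at 1434 to 2206 CPM a library against 2719 to 3659 in M0. The difference lay in *Lyz2* (lysozyme), at 368 ± 61.3 CPM against 1847 ± 375.6, since the other 7 markers summed to 1112 to 1768 CPM a library in M2 and 1303 to 1554 in M0. The part of the *Lyz2* shift in the *Spp1* result was not tested.

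Some of these genes share ground with other annotated genes, and Smart-seq2 reads do not keep the strand. By the GENCODE M21 annotation, *Gm42793* lies on the strand of *Spp1* and shares 309 exon bases, with group means of 0.0884 to 1.38 CPM. The antisense *9830144P21Rik* shares 452 exon bases with *Slc20a1* at 0.474 to 1.26 CPM. Nearer in level is *Smim19*, which shares 95 exon bases with *Slc20a2* on the other strand and had 3.03 to 5.50 CPM. The part of the *Slc20a2* counts that comes from these shared bases was not tested. *Otulin* overlaps *Ank* on the other strand with 0 shared exon bases, and *Gm48081*, antisense to *Slc37a2*, was at 0 CPM in each group.

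The wider pathway was followed in 5 further lists, whose counts stand beside the shares of all genes called, 0.0241% between the rods, 0.409% and 0.0602% for CaP and SiO2 against M0, 14.1% in M1 and 4.13% in M2. Calls in these lists and the marker lists are those of edgeR, and alternatives were read only where it called a gene. Calls that another setting would add were not counted, and for CaP against M0 DESeq2 called 673 genes where edgeR called 68. Of 12 other phosphate carriers, 7 were tested and 0 were called in any comparison. The renal and epithelial importers *Slc34a1*, *Slc34a2* and *Slc34a3* and *Slc17a1* and *Slc17a3* were too low to test. *Slc25a3*, which carries phosphate into mitochondria, was the most abundant, at 313 ± 49.2 CPM in M0, 319.6 ± 16.2 with CaP rods and 318 ± 27.6 with SiO2 rods. Its CaP against SiO2 difference was 0.01 on the log2 scale, with an interval from -0.33 to 0.34. The median log2 fold change of the 7 carriers was 0.09 between the rods, beside 0.03 over all genes tested. Against M0 it was 0.11 with CaP rods, 0.03 with SiO2 rods, -0.07 in M1 and 0.36 in M2. Over all genes these medians were 0.06, -0.02, -0.01 and 0.07. With CaP rods 2 of 7 carriers, both higher, had an unadjusted edgeR p below 0.05 against M0, beside 18% of all genes. In M1 1 of 7 did, beside 27.7%, and in the other comparisons 0.

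Inositol pyrophosphates bind the SPX domain of XPR1 and set its export activity. Of 10 genes for their synthesis, turnover or for XPR1 partners, 7 were tested, 0 were called in the rod comparisons and in M2, and 2 of 7 rose in M1, where 14.1% of all genes were called. *Ppip5k1*, a kinase of this route, rose from 9.23 ± 1.16 CPM in M0 to 23.0 ± 2.81 in M1 (log2 fold change 1.34 ± 0.26, edgeR adjusted p = 0.00318). *Ip6k2*, the kinase before it, stood at 4.81 ± 0.686 CPM in M0 and 8.50 ± 2.27 in M1 (0.82 ± 0.24, edgeR adjusted p = 0.0323). The *Ip6k2* call was lost in 8 of 13 alternatives, with log2 fold changes from 0.68 to 1.04 over all of them. It was lost with a replicate block (0.81, adjusted p = 0.0559), without the filter (0.81, 0.158), without the 3 libraries that stood apart (0.81, 0.0637), with only the 9 M0, M1 and M2 libraries in the model (0.79, 0.105), and without M0 replicate 1 (0.68, 0.147), M0 replicate 3 (0.81, 0.0702), M1 replicate 1 (0.71, 0.103) or M1 replicate 3 (0.70, 0.131). *Nudt3*, a phosphatase that degrades these molecules, was the most abundant of the list and was called in no comparison. The list's median log2 fold change was 0.01 between the rods and -0.03 in M1, beside 0.03 and -0.01 over all genes. It was -0.43 with CaP rods, -0.27 with SiO2 rods and -0.24 in M2 against M0, beside 0.06, -0.02 and 0.07. An unadjusted edgeR p below 0.05 against M0 was reached by 3 of 7 with CaP rods, all lower, beside 18% of all genes. The number was 1 with SiO2 rods, 2 in M1 and 2 in M2, beside 9.27%, 27.7% and 17.2%.

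Of 9 enzymes and transporters of pyrophosphate and phosphate release, 4 were tested and 0 were called in any comparison. *Alpl*, the phosphatase that hydrolyses pyrophosphate in bone, and *Abcc6* and *Nt5e* were too low to test, as *Enpp1* was. *Ppa1*, the cytosolic pyrophosphatase, was the most abundant and stood at 134 ± 23.0 CPM in M0, 128 ± 11.6 with CaP rods, 133 ± 9.71 with SiO2 rods, 179.7 ± 19.5 in M1 and 122 ± 19.9 in M2. Its largest difference from M0 was 0.42 ± 0.17 on the log2 scale, in M1 (edgeR adjusted p = 0.113).

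Of 12 matrix and osteopontin-modifying genes, 2 were tested in the rod comparisons and 3 in the model of 15 libraries. *Fam20c*, the Golgi kinase that phosphorylates osteopontin, stood at 26.5 ± 1.26 CPM in M0 and rose to 114.4 ± 37.6 in M2 (log2 fold change 2.11 ± 0.40, edgeR adjusted p = 0.00855, and 2.09 with an adjusted p of 0.0520 without M0 replicate 1). With CaP rods it was 70.3 ± 36.8 CPM (log2 fold change against M0 1.41 ± 0.38, edgeR adjusted p = 0.127) and with SiO2 rods 45.6 ± 9.50 (0.78 ± 0.37, adjusted p = 0.565). The lowest CaP library, at 29.9 CPM, and the lowest SiO2 library, at 36.9, lay above the highest of M0, at 27.8, as libraries did not overlap for 17.4% and 18% of all genes. The CaP against SiO2 difference of 0.62 had an interval from -0.20 to 1.45. *Acp5*, the tartrate-resistant phosphatase that can remove phosphate from osteopontin, had 0 to 5 counts a library in M0 and 26 to 38 in M1 (edgeR adjusted p = 1.07e-05), which is 2.68 ± 0.491 CPM in M1, and no fold is given against so few counts.

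Of 8 osteopontin receptor genes, 6 were tested. None was called in the rod comparisons, where 1 of 6 had an unadjusted p below 0.05 against M0 with either rod, beside 18% of all genes with CaP and 9.27% with SiO2. It was *Itgb5*, with log2 fold changes of -0.94 with CaP rods (edgeR adjusted p = 0.0848) and -0.64 with SiO2 rods (0.387). In M1 3 of 6 were called, beside 14.1% of all genes, and in M2 2 of 6, beside 4.13%. In M1 *Itga5*, the fibronectin receptor chain, rose from 16.1 ± 3.99 to 49.7 ± 11.9 CPM (log2 fold change 1.64 ± 0.33, edgeR adjusted p = 0.00426). *Itgb5* fell by 0.97 on the log2 scale in M1 (edgeR adjusted p = 0.00528) and also by 0.97 in M2 (adjusted p = 0.0135), from 17.4 ± 0.847 CPM in M0 to 8.87 ± 0.193 and 9.09 ± 2.01. *Itgav*, its partner in the osteopontin receptor αvβ5, fell by 0.94 in M1 (edgeR adjusted p = 0.0220), and *Itga4* fell by 1.02 in M2 (adjusted p = 0.0194). *Cd44*, the hyaluronan receptor that also binds osteopontin, was the most abundant, at 279 ± 69.5 CPM in M0, and was called in no comparison.

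The sizes of the integrin changes moved little under the 13 alternatives, but several lay near the threshold. *Itgav* in M1 ranged from -1.09 to -0.84 and its call was lost in 6 of 13, namely without the filter (adjusted p = 0.0536), with only the 9 M0, M1 and M2 libraries in the model (0.0539) and without M0 replicate 1, M0 replicate 2, M1 replicate 2 or M1 replicate 3, with adjusted p from 0.0605 to 0.0805. In M2 *Itgb5* ranged from -1.14 to -0.83 and its call was lost in 4 of 13, without the filter (0.0834), with those 9 libraries (0.0566) and without M2 replicate 1 or M2 replicate 3 (0.0573 and 0.0867). *Itga4* in M2 ranged from -1.14 to -0.86 and its call was lost in 6 of 13, without the filter (0.0738), with those 9 libraries (0.0901) and without M0 replicate 1, M0 replicate 3, M2 replicate 1 or M2 replicate 3, with adjusted p from 0.0559 to 0.113. The median log2 fold change of the 6 receptors was -0.50 in M1 and -0.69 in M2, beside -0.01 and 0.07 over all genes. Against M0 it was -0.25 with CaP rods and -0.33 with SiO2 rods, beside 0.06 and -0.02. Between the rods it was 0.04, beside 0.03.

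**Figure D4:**
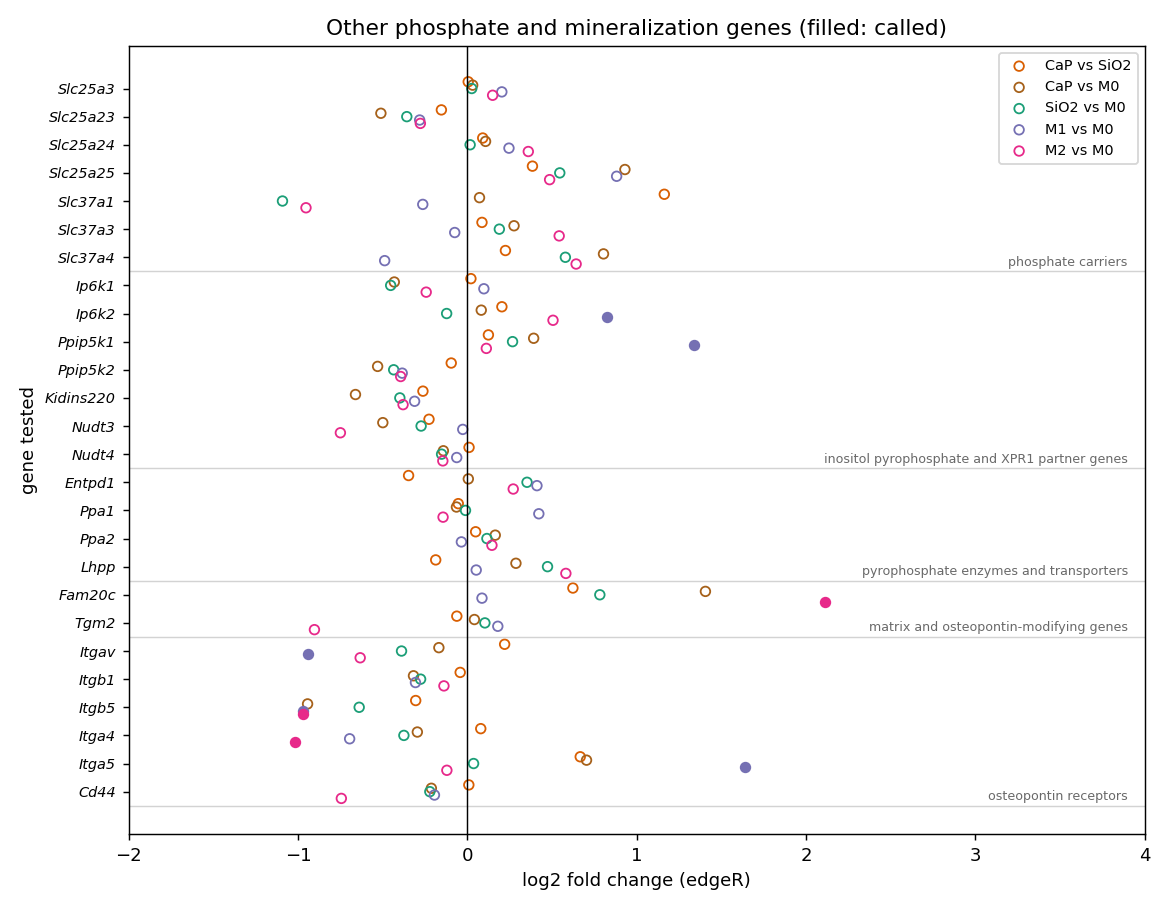
Log2 fold change (horizontal axis) of the tested genes of the 5 further lists (vertical axis) in the 5 comparisons, with filled points for called differences. Filled points occur only in M1 and M2 against M0, where 14.1% and 4.13% of all genes were called, and *Acp5* is left out because of its few counts in M0.

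Of the 30 genes of the marker lists, 13 were tested. In M1 5 were called, beside 14.1% of all genes, in M2 4, beside 4.13%, and in the rod comparisons, where at most 0.409% of all genes were called, 0. *Adgre1* and *Fcgr1* rose and *Csf1r* fell in M1, where *Marco* and *Fabp4*, at 2.18 and 1.41 CPM, also rose. In M2 *Lyz2* and *Runx2* fell and *Adgre1* and *Mrc1* rose. The *Csf1r* log2 fold change ranged from -1.10 to -0.70, and its call was lost in 6 of 13 alternatives, without the 3 libraries that stood apart (edgeR adjusted p = 0.0667), with only the 9 M0, M1 and M2 libraries (0.0542) and without M0 replicate 2, M0 replicate 3, M1 replicate 1 or M1 replicate 2 (from 0.0957 to 0.141). The call of *Adgre1* in M2 was lost without M0 replicate 1 (1.43, edgeR adjusted p = 0.0585). *Runx2*, a transcription factor of bone-forming cells, stood at 12.4 ± 3.79 CPM in M0 and 6.04 ± 0.291 in M2 (log2 fold change -1.06, edgeR adjusted p = 0.0239). It ranged from -1.27 to -0.81, and the call was lost in 8 of 13 alternatives, with adjusted p from 0.0512 to 0.131 in these. They were the fits without the filter, with a replicate block, without the 3 libraries that stood apart, with only the 9 M0, M1 and M2 libraries, and without M0 replicate 1, M0 replicate 3, M2 replicate 1 or M2 replicate 3.

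Across the 15 libraries the 6 tested genes did not run together. Pearson's r of their log2 CPM lay between -0.53 for *Spp1* with *Slc37a2* and 0.50 for *Slc20a1* with *Xpr1*. The profile of *Ank* over the libraries was most like those of *Ak4* (r = 0.975), *Rgs2* (0.970) and *Cd209a* (0.969) among 11310 genes compared. *Spp1* was most like a gene without a symbol here, ENSMUSG00000134905 (0.968), *Gm48969* (0.960) and *Cadps* (0.958). For *Slc20a1* these were *Cpsf2* (0.940), *Kpna3* (0.935) and *Eif4g2* (0.933), and for *Slc20a2* *Pwp2* (0.930), *Cdc25b* (0.878) and *Cnot10* (0.870).

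*Slc37a2* was most like *Nit1* (0.886), *Baiap2* (0.874) and *Armc9* (0.871), and *Xpr1* was most like *Smc2* (0.842), *Adam17* (0.840) and *Gsap* (0.825), the lowest values of the 6. All these are descriptions over 15 libraries that share groups, depth and preparation, and the genes named were the highest of all those compared.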

How the data were processed

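RNA of 15 MH-S wells was made into Smart-seq2 libraries. The authors processed the paired-end reads with nf-core/rnaseq (STAR and Salmon, Ensembl annotation, GRCm39 per the labels) and deposited whole-number counts per Ensembl gene, without normalization or a gene filter; Salmon estimates counts, so these may be rounded. All 15 columns were mapped by name and 0 were unused.

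The counts were fitted with edgeR 4.0.16 under R 4.3.3 (filterByExpr by group, TMM, quasi-likelihood test, Benjamini-Hochberg adjustment). Rods were compared in a model of the 9 M0, CaP and SiO2 libraries, M1 and M2 in a model of all 15. Standard errors and 95% intervals were derived from the fitted test. Calls needed an adjusted p under 0.05 together with a log2 fold change over 0.5 in size. Names, lengths and promoters came from other annotation releases than the authors used (GENCODE M21, and RefSeq on GRCm38.p6).

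Genes were named as the 7 members, list genes called in a comparison or most abundant in their list, and the 3 genes with the highest r to each member, taken from genes averaging 5 CPM or more in some group (log2 CPM, prior count 2). The members and lists were chosen with earlier results of these data known. Same-numbered libraries of M1 and M0 deviated together (r = 0.292, 0.275 and 0.206 of deviations from group means), so a replicate block was fitted there, as in every comparison. Alternatives were DESeq2 1.42.0, its size factors, no filter, the block, other libraries in the model, each library left out, 3 libraries left out together and, chosen after seeing the data, the legacy quasi-likelihood. The 3 libraries left out together are those that stood apart on the second principal component, so that setting also rests on these same data. The tests were tried on simulated data. Reads of amplified cDNA carry no molecular identifiers here, so floors cover counting error only.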

Additional observations from a re-analysis of the deposited data

How the results depend on the processing

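Each of the 6 tested genes was refitted 13 times in each comparison, 390 values in all, of which 363 kept both call and direction. The call was lost in 7 and gained in 5, and the sign turned in 15, each with a reported log2 fold change below 0.2 in size. The calls of *Ank* in M1 and of *Slc37a2* and *Spp1* in M2 held throughout. The number of the 6 genes called became 1 for CaP against SiO2 without the filter on low counts. For CaP against M0 it became 0 with the replicate block, 0 without the 3 libraries that stood apart, 0 in the model of all 15 libraries, and between 0 and 1 when single libraries were left out. For M1 against M0 it became 2 without the filter and 3 without the 3 libraries that stood apart. The cause of these changes was not tested.

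The signs that turned were, for CaP against SiO2, *Slc20a1* at 0.12 without CaP replicate 1 (-0.45 to 0.12 over single libraries left out) and *Xpr1* at -0.0020 without the 3 libraries that stood apart, -0.042 without CaP replicate 1, -0.066 without CaP replicate 2 and -0.080 without SiO2 replicate 1 (-0.080 to 0.078). For CaP against M0 they were *Slc20a2* at -0.0054 without M0 replicate 1 and -0.13 without CaP replicate 2 (-0.13 to 0.36), and *Ank* at 0.0047 without the filter, 0.023 without the 3 libraries that stood apart, 0.025 without M0 replicate 1, 0.023 without M0 replicate 3, 0.022 without CaP replicate 3 and 0.011 without CaP replicate 1 (-0.15 to 0.025). For M2 against M0 it was *Ank* at 0.017 without M2 replicate 1 or 3 (-0.29 to 0.017).

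The replicate block gave *Spp1* an adjusted p of 0.0916 in CaP against M0 and changed no other call of the 6 genes. Over all genes it called 28 in place of 68 there, 1 in place of 4 between the rods, 1 in place of 10 for SiO2 against M0, 504 in place of 687 for M2 and 2121 in place of 2342 for M1. Outside M1 the numbers did not pair the libraries consistently. Same-numbered deviations correlated at -0.118, -0.244, -0.534 and -0.704 at the lowest in CaP against SiO2, CaP against M0, SiO2 against M0 and M2 against M0. At the highest they correlated at 0.604, 0.525, 0.479 and -0.057, the first 3 of these above every value in M1. In the same order, only 3, 2, 1 and 0 of 6 libraries correlated best with their own number, against 6 of 6 in M1. Over all 13 alternatives, calls over all genes ranged from 1 (block) to 16 (DESeq2) for CaP against SiO2, 13 (without M0 replicate 1) to 743 (without CaP replicate 1) for CaP against M0, 0 (without M0 replicate 1) to 134 (DESeq2) for SiO2 against M0, 297 (only the 9 M0, M1 and M2 libraries) to 1361 (without M2 replicate 2) for M2, and 1506 (those 9 libraries) to 3610 (without the 3 libraries that stood apart) for M1.

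*Enpp1*, with at most 5 counts in a library, could not be tested at this depth. The CaP against SiO2 intervals of *Slc20a1*, *Slc20a2* and *Slc37a2* each spanned more than 1 log2 unit.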

Other observations

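*Slc37a1*, a relative of *Slc37a2* named here after its values were seen, stood at 62.7 CPM in M0 replicate 1 and 61.1 CPM in CaP replicate 1, the highest of all libraries, and its group means were 27.7 ± 30.3 CPM in M0 and 29.7 ± 27.2 CPM with CaP rods against 13.4 ± 0.669 CPM with SiO2 rods, 23.8 ± 2.17 in M1 and 14.8 ± 1.39 in M2 (SD, n = 3). *Fam20c* was uneven among the CaP wells in the other direction. CaP replicate 1 was the lowest for it, at 29.9 CPM, with 79.2 and 101.8 CPM in replicates 2 and 3. In M0 *Fam20c* was even, at 25.4 to 27.8 CPM. *Spp1* lay between 9003 and 9695 CPM in the same CaP wells.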
